A study of Mus musculus with 12 samples.

Results

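The clustered protocadherins are the cell-surface adhesion proteins encoded by the alpha, beta and gamma gene clusters on mouse chromosome 18. Members were taken by symbol: protein-coding rows of the count table whose symbol starts with Pcdha, with Pcdhb and a digit, or with Pcdhga, Pcdhgb or Pcdhgc. Of the 56748 rows of the table, 57 met this rule: 14 in the alpha cluster, 22 in the beta cluster and 21 in the gamma cluster. A further row that carries such a symbol, Pcdhgb8, is annotated as a polymorphic pseudogene and was left out; it held 14 to 40 counts per library. Levels are given as CPM, counts scaled to the library total and by edgeR's trimmed mean of M values (TMM), and members not given by their own values are covered by the range of their cluster.

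RNA from brain tissue of the mouse, described by the series as adult forebrain, was sequenced in 12 libraries, 3 in each of 4 groups. Wildtype libraries (WT) came from mice without the deletion and without a drug label, and knockout libraries (htr) from mice labelled htr3a Notch KO, again without a drug label. Exposed wildtype (WT_V) and exposed knockout (htr_V) libraries came from the same 2 genotypes after valproic acid, an antiepileptic drug and inhibitor of histone deacetylases, which according to the series was given before birth. The Notch gene removed, the Cre driver, the age in days, the dose and day of exposure, and whether libraries came from separate animals are unstated in the labels. The p-values therefore measure the spread between these libraries, which may be technical. In bulk tissue, fewer cells of a type and less RNA per cell cannot be told apart.

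Each neuron transcribes its own small set of clustered protocadherins, and proteins on facing membranes bind only when the sets match. Branches of one neuron thereby recognise and avoid each other, and the clusters are known for dendrite self-avoidance, axon tiling and the survival of interneurons. In the alpha and gamma clusters a long variable exon with its own promoter is spliced to constant exons shared by the whole cluster, whereas a beta gene is a single exon; promoter choice depends on CTCF and cohesin, which bring a distant enhancer to 1 promoter, and on DNA methylation. The C-type isoforms at the end of the alpha and gamma clusters differ from the alternate isoforms in being transcribed by most neurons of a given class.

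Total counts ran from 16887885 to 24944681 per library, and mitochondrial genes held 12.2% to 18.6% of them, the highest share being in exposed knockout replicate 1. Exposed wildtype replicate 3 and exposed knockout replicate 3 held 12 and 6 counts of Xist, the RNA of the inactive X chromosome, against 5919 to 10767 in the other libraries. No transcript level separated the genotypes at the Notch receptors: Notch1 had 16.6 to 19.98 CPM in wildtype libraries and 16.4 to 17.6 CPM in knockout libraries, and none of Notch1, Notch2, Notch3, Notch4 or Rbpj passed the test in either genotype comparison. Htr3a, by contrast, differed between genotypes, with 3.42 to 4.91 CPM in wildtype libraries and 9.41 to 10.6 CPM in knockout libraries (adjusted p = 5.34e-05). Every list of cell type markers, from pan-neuronal genes to choroid plexus, had 0 genes without counts over the 12 libraries together. The serotonergic neuron list was near the floor: 3 of its 6 genes were tested, and its sums ran from 6.63 to 10.2 CPM.

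What a count of a clustered protocadherin represents follows from how the exons overlap. In GENCODE M21, an annotation of the earlier build GRCm38, each alpha or gamma transcript ends in 3 constant exons that all genes of its cluster share. Median exon length was 5356 bases in the alpha cluster, of which a median of 46.4% belonged to 1 gene alone, and 4882 bases in the gamma cluster, of which 54.8% did. Beta genes had a median of 3714 bases, and 19 of the 22 shared none. The deposited counts followed the unshared bases: 7 other rows of the locus with no base of their own, among them the readthrough rows Gm42416 and Gm37013, held 0 counts in all 12 libraries, although 3 of them have unshared bases on their own strand. Over the whole table, 248 of 251 genes with no base free of overlap on both strands but at least 200 free on their own strand had at most 12 counts over the 12 libraries (98.8%). The same was true of 759 of 4700 genes overlapped by the opposite strand that kept at least 200 free bases (16.1%). Genes whose sequence is all shared with annotated genes, on the same or the opposite strand, were thus nearly without counts. If shared bases of the members were left out likewise, the alpha and gamma values describe sequence outside the constant exons. The annotation used for counting is not given, and the free bases were not mapped to the variable exons. Levels per kilobase below use exon bases free of overlap on both strands, and members with under 1000 such bases, Pcdha4 and Pcdhga10, have none.

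In all, 5 members had too few counts for a test, and overlap marks 3 of them. Pcdhga10 had 0 to 2 counts per library; all of its 4732 exon bases are shared on one strand or the other, with 2613 free on its own strand. Pcdha4 had 0 to 4 counts and 404 free bases of 5768, and Pcdha11 had 0 to 2 counts and 1268 free bases of 7535. How far the overlap lowered the counts of Pcdhga10, Pcdha4 and Pcdha11 was not tested. Pcdha11 was low beside genes with as few free bases: Pcdhga11, with 1256, held 6.49 CPM and Pcdhb12, with 1107, held 2.83 CPM. Where in each gene the free bases lie was not examined. Pcdha8, with 1 to 12 counts, and Pcdhb1, with 0 to 3, were low over 2478 and 2588 free bases, lengths at which other alternate isoforms were tested. The remaining 52 members were tested: 11 alpha, 21 beta and 20 gamma.

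**Figure D1:**
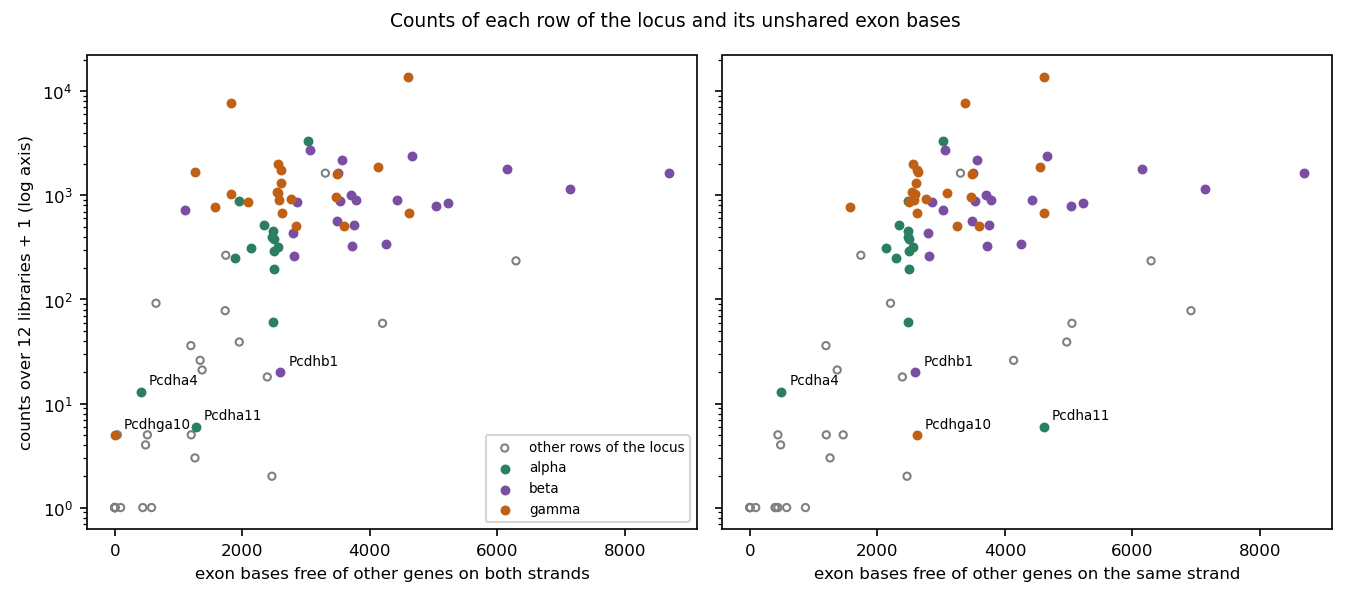
Counts over the 12 libraries plus 1 (vertical log axis) against exon bases free of other genes on both strands (left) or on the same strand only (right), for the 57 members by cluster and for other rows of the locus (open circles). Pcdhga10 lies at 0 free bases on the left and at 2613 on the right; the counts of Pcdhga10, Pcdha11, Pcdha4 and Pcdhb1 are among the lowest of the members.

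The C-type isoforms led the locus. Pcdhgc5, which binds a GABA-A receptor subunit at inhibitory synapses, had the highest level of all members, 53.1 CPM over the 12 libraries (range 44.6 to 63.3). Pcdhgc3, which acts in dendrite arborisation, followed at 30.03 CPM and Pcdhac2, required for the tiling of serotonergic axons, at 13.0 CPM. Per kilobase of free exon the first 2 changed places. Pcdhgc3 stood at 14.5 to 18.2 CPM per kilobase and Pcdhgc5 at 9.69 to 13.8, with no overlap over the libraries. This order depends on which bases are used. Free on its own strand, Pcdhgc3 has 3380 bases instead of 1821, and Pcdhgc5 has 4606 either way. On own-strand bases Pcdhgc5 would stay first. Pcdhac2 lay at 3.46 to 4.89 CPM per kilobase and overlapped with the highest alternate isoform, Pcdhga11, at 4.04 to 6.36. Pcdhga11 likewise has 1256 bases free on both strands and 2637 on its own, and on the latter Pcdhgb6 would lie above it. Not all C-types were high. Pcdhgc4, the isoform needed for interneuron survival, lay at 1.33 to 2.53 CPM per kilobase, and Pcdhac1 at 0.280 to 0.617 was within the range of the alternate alpha isoforms. Together the 5 C-types held 37.1% ± 1.24 (SD, n = 12) of the counts of the 57 members. Pcdhgc5 made up 32.8% of gamma counts and Pcdhac2 45.3% of alpha counts.

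Alternate isoforms were low and uneven. Mean CPM of the tested members ran from 0.752 to 13.0 in the alpha, from 0.995 to 10.7 in the beta and from 1.93 to 53.1 in the gamma cluster, C-types included. Median level per kilobase was 0.55 CPM for alternate alpha isoforms, 0.76 for beta genes, 1.64 for the Pcdhga group and 1.16 for the Pcdhgb group, against 11.5 for the 3 Pcdhgc isoforms. In the alpha cluster, Pcdha12 led the alternate isoforms at 3.37 CPM (1.20 to 2.44 CPM per kilobase) and Pcdha5 came next at 2.01 CPM. The beta cluster was led by Pcdhb9 at 10.7 CPM, Pcdhb17 at 9.34 and Pcdhb20 at 8.59; Pcdhb9 also led per kilobase, at 3.49. Among the alternate gamma isoforms, Pcdhgb6 stood highest in CPM at 7.84, followed by Pcdhga12 at 7.18 and Pcdhga6 at 6.83. Position in the cluster and level per kilobase were weakly related across genes: Spearman's rho of gene order and level was 0.18 for 11 alternate alpha isoforms, 0.21 for 22 beta genes and 0.36 for 17 alternate gamma isoforms, where Pearson's r was 0.29, 0.17 and 0.45. These values describe genes measured in the same libraries and carry no test.

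**Figure D2:**
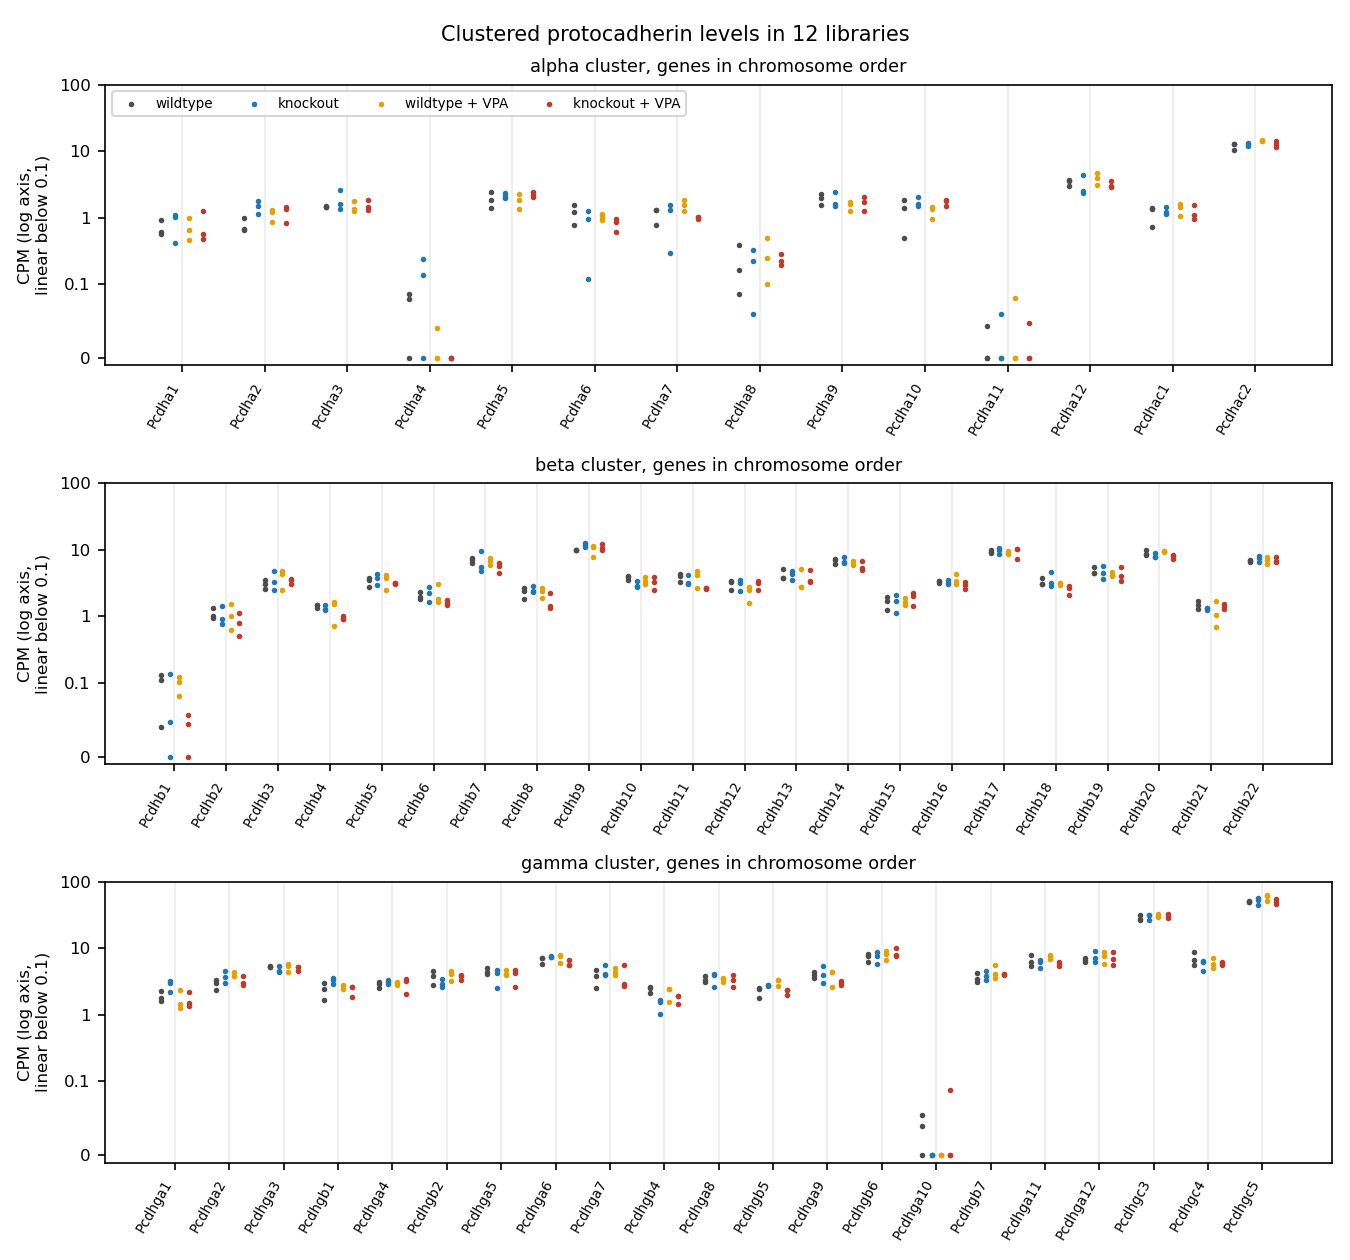
Level of each of the 57 members in CPM (log axis, linear below 0.1) in the 12 libraries, 3 points for each of the 4 groups, with genes in chromosome order within each cluster. The C-types Pcdhac2, Pcdhgc3 and Pcdhgc5 stand at the right of their clusters, and the 5 untested members lie near 0.

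Spread within groups was expressed relative to counting error, so that 1 means counting error alone. Members between 2 and 5 CPM had a median spread of 2.29 against 2.07 for all 2065 genes of that level. For members between 5 and 20 CPM it was 2.20 against 2.56. Between 20 and 80 CPM, Pcdhgc3 at 4.54 and Pcdhgc5 at 9.59 lay above the median of 3.804 and below the 95th percentile of 13.05. Pcdhga7, at 6.93, was the member of the 2 to 5 CPM band above the 95th percentile of its level (5.99). Its 3 exposed knockout libraries read 2.95, 2.68 and 5.58 CPM, and its wildtype libraries 2.57, 3.803 and 4.78.

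Summed over members, the alpha and gamma clusters overlapped between all groups compared, and the beta cluster between all but 1 pair. The gamma sum was 156 ± 5.89 CPM in wildtype, 161 ± 12.3 in knockout, 172 ± 8.73 in exposed wildtype and 156 ± 12.1 in exposed knockout (SD, n = 3 each), and all 4 ranges overlapped with their comparison group. For exposed wildtype against wildtype, a ratio of 1.10, the overlap was narrow. Exposed wildtype replicate 3 had 162.4 CPM and wildtype replicate 1 had 162.7, while exposed wildtype replicates 1 and 2 had 176 and 179. The alpha sum was 27.2 ± 3.45, 29.1 ± 2.49, 30.4 ± 2.31 and 28.4 ± 0.93 CPM in the same order, again with overlap throughout. The beta sum was 91.5 ± 1.69 CPM in wildtype, 92.8 ± 2.70 in knockout, 89.3 ± 8.58 in exposed wildtype and 83.5 ± 4.53 in exposed knockout. Here the 3 exposed knockout libraries, at 78.3, 85.9 and 86.3 CPM, all lay below the knockout libraries at 92.8, 90.0 and 95.4, a ratio of 0.900. Without exposed knockout replicate 1, the library with the highest mitochondrial share, the ratio was 0.928 and the groups still did not overlap. With all libraries, 10.3% of all tested genes lay wholly lower in exposed knockout than in knockout, and 9.87% wholly higher. Sums over chosen members were not tested.

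**Figure D3:**
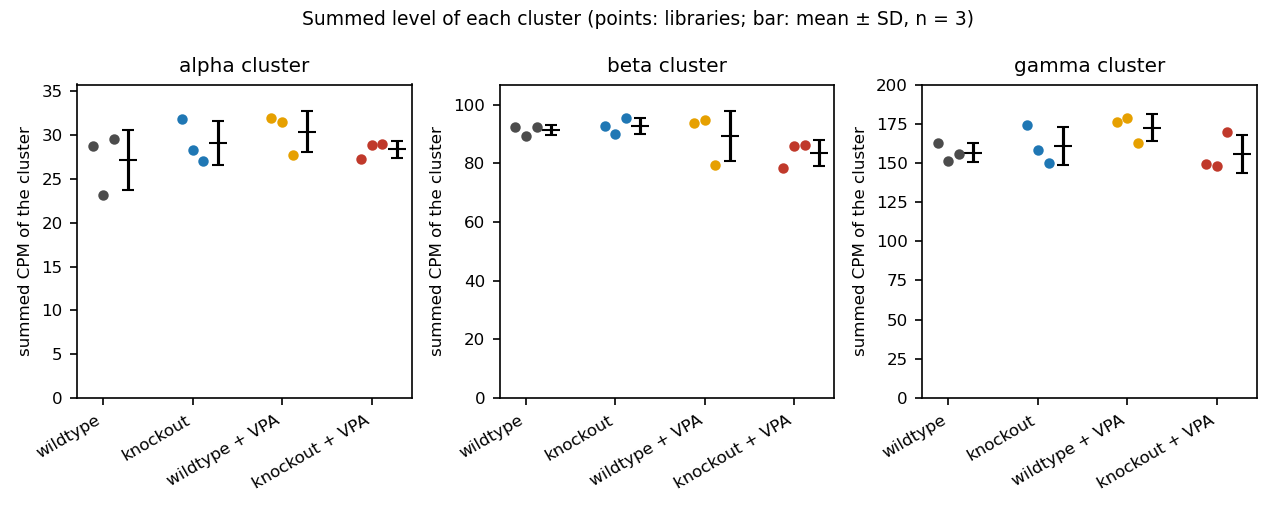
Summed CPM of the alpha, beta and gamma clusters (vertical axes from 0) in each library (points) of the 4 groups, with mean ± SD beside them (n = 3). The exposed knockout libraries of the beta panel lie between 78.3 and 86.3 CPM, under the 90.0 to 95.4 CPM of knockout.

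Shares within the locus do not depend on library scaling. C-types held 36.9%, 35.8% and 35.8% of member counts in the wildtype libraries and 36.2%, 36.0% and 35.4% in the knockout libraries. In exposed wildtype the shares were 37.9%, 38.1% and 39.0%, and in exposed knockout 38.7%, 37.1% and 37.9%. Every exposed library lay above every unexposed library, with group means of 36.1% and 38.3% in wildtype and 35.9% and 37.9% in knockout. Within the gamma cluster alone, the C-type share overlapped, at 54.6% to 55.7% in wildtype against 55.4% to 56.0% in exposed wildtype. In knockout it was 53.7% to 54.9%, against 54.5% to 57.4% in exposed knockout. The share of Pcdhac2 in the alpha counts also overlapped between exposed and unexposed libraries of each genotype. The beta share was 32.5% to 33.9% in wildtype against 29.5% to 31.1% in exposed wildtype, without overlap, and 31.1% to 35.0% in knockout against 30.3% to 32.7% in exposed knockout, with overlap. This pattern was noticed in the data and is a description without a test. Both libraries low in Xist were exposed, and without them the exposed C-type shares still ran from 37.1% to 38.7%. Of 10 striatal projection neuron markers, 4 fell with exposure in wildtype (0.895% of all genes passed) and 0 passed the test in knockout. Their levels summed to 1862 to 1953 CPM in wildtype against 1176 to 1329 in exposed wildtype, and to 1407 to 2155 in knockout against 1274 to 1551 in exposed knockout. Of 10 olfactory bulb and immature neuron markers, 1 fell in wildtype and 0 passed in knockout. Their sums were 258 to 383 CPM in wildtype, 239.7 to 331 in knockout, 199 to 213 in exposed wildtype and 211 to 236 in exposed knockout, so every exposed library lay below every unexposed one. The part of either list in the shares was not tested.

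**Figure D4:**
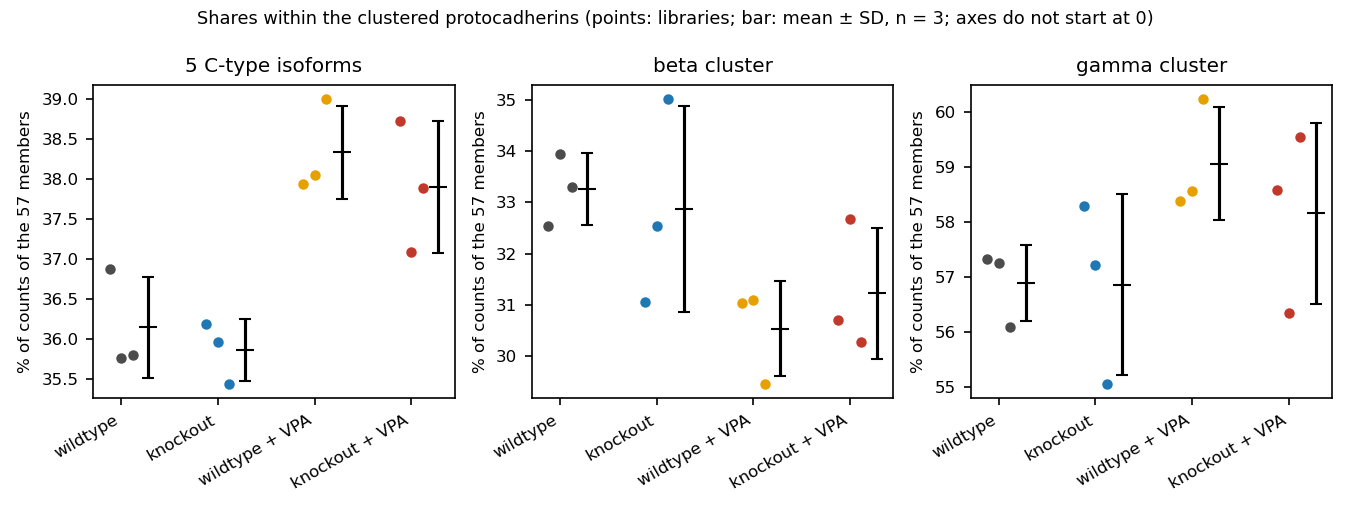
Percent of the counts of the 57 members held by the 5 C-type isoforms, the beta cluster and the gamma cluster in each library (points) of the 4 groups, with mean ± SD (n = 3); the vertical axes do not start at 0. In the left panel the 6 exposed libraries lie at 37.1% or more and the 6 unexposed libraries at 36.9% or less.

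Prenatal valproic acid in wildtype left no member past the test. With edgeR's quasi-likelihood test and Benjamini-Hochberg adjustment, 0 of 52 members had an adjusted p under 0.05, where 0.895% of all 17995 tested genes did; DESeq2 and limma-voom also called 0. At an unadjusted p under 0.05, 4 members stood out, all with higher values (7.69% of members, against 14.2% of all genes in either direction). These were Pcdhgc5, Pcdhac2, Pcdhga2 and Pcdhgb5. Pcdhgc5 read 52.02, 49.8 and 49.9 CPM in wildtype and 63.3, 61.9 and 52.001 in exposed wildtype. Exposed replicate 3 lay at the level of the highest wildtype library, and the log2 fold change was 0.23 ± 0.09 (SE, adjusted p = 0.238). The serotonergic tiling isoform Pcdhac2 read 12.7, 10.5 and 13.0 CPM against 14.3, 14.8 and 14.1, without overlap, a log2 fold change of 0.25 ± 0.11 (adjusted p = 0.291). Both are C-types, which most neurons of a given class transcribe. Another abundant C-type, Pcdhgc3, read 32.0, 27.7 and 26.4 CPM against 29.4, 30.8 and 33.0 (0.11, 95% interval -0.08 to 0.30).

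Pcdhga2 and Pcdhgb5 are alternate gamma isoforms, of the kind a neuron transcribes in its own combination. Pcdhga2 read 2.33, 3.03 and 3.34 CPM in wildtype and 3.81, 4.42 and 3.77 in exposed wildtype, and Pcdhgb5 read 2.49, 1.76 and 2.43 against 2.71, 3.39 and 3.31. Neither pair of groups overlapped, and the log2 fold changes were 0.47 ± 0.20 (adjusted p = 0.277) and 0.48 ± 0.21 (adjusted p = 0.282). Over all members, 3 had exposed groups wholly above wildtype and 0 wholly below, where 9.82% and 10.9% of all genes did. By cluster the median log2 fold change was -0.00 for alpha, -0.05 for beta and 0.10 for gamma members, beside 0.01 for all genes. The alpha median depended on single libraries: it was 0.24 without wildtype replicate 1, 0.22 without wildtype replicate 3 and 0.21 without exposed wildtype replicate 3. Of the 20 gamma members 13 were above 0, and of the 21 beta members 9; over all members 25 of 52 were below 0 (48.1%, against 48.5% of all genes). The C-type Pcdhgc4 read 6.67, 5.57 and 8.81 CPM against 5.87, 7.11 and 5.04, with an interval of -0.58 to 0.13.

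In the knockout, valproic acid again left 0 of 52 members past edgeR's test (0.0556% of all genes passed; DESeq2 and limma-voom called 0 members). Here the members tended below 0: 38 of 52 had a negative log2 fold change (73.1%, against 48.2% of all genes), 17 of 21 in the beta cluster, 13 of 20 in gamma and 8 of 11 in alpha. Medians were -0.12, -0.06 and -0.09, beside 0.01 for all genes. The balance leaned on single libraries: 30 members were negative without knockout replicate 1, where the alpha median was 0.06 and the gamma median 0.01, and 32 without exposed knockout replicate 1; without both libraries low in Xist there were 37. Groups were separate with the exposed knockout lower for 8 members, 4 beta and 4 gamma (15.4%, against 10.3% of all genes), and higher for 0 (9.87% of all genes). The 5 members with an unadjusted p under 0.05 were all lower in the exposed group (9.62%, against 14.9% of all genes in either direction). Several lists of cell type markers also leaned to one side between these groups. Of 10 pan-neuronal markers, 7 were negative (median -0.03, 0 past the test), with sums of 5428 to 5720 CPM in exposed knockout against 5814 to 6087 in knockout. All 12 choroid plexus markers were positive (median 0.64, 0 past the test), with sums of 2653 to 3192 CPM in exposed knockout against 1854 to 2004 in knockout. All 8 meningeal fibroblast markers were positive (median 0.52, 0 past the test; sums of 111 to 136 against 81.0 to 101 CPM), and all 10 olfactory bulb and immature neuron markers were negative (median -0.38, 0 past the test; sums of 211 to 236 against 239.7 to 331 CPM). Their part in the protocadherin values was not tested.

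Pcdhga1, the first gene of the gamma cluster, read 3.01, 2.21 and 3.23 CPM in knockout and 1.36, 1.49 and 2.20 in exposed knockout. The groups nearly met without overlapping, and the log2 fold change was -0.72 ± 0.27 (adjusted p = 0.205). In wildtype the same gene read 1.81, 2.26 and 1.61 CPM unexposed and 1.26, 1.47 and 2.39 exposed (-0.16, adjusted p = 0.855). Pcdhb8, a beta gene, read 2.87, 2.38 and 2.33 CPM against 1.31, 2.20 and 1.41 (-0.62 ± 0.25, adjusted p = 0.239), and its wildtype libraries read 2.69, 2.42 and 1.82 against 2.63, 1.88 and 2.39. Pcdhga6, an abundant alternate gamma isoform, read 7.72, 7.47 and 7.35 CPM against 5.56, 5.70 and 6.59 (-0.33 ± 0.15, adjusted p = 0.275). All 3 were separate between knockout groups. Pcdhb18 read 2.82, 3.15 and 4.66 CPM against 2.10, 2.68 and 2.81 (-0.46 ± 0.21, adjusted p = 0.310), so its groups were separate by a narrow margin. The C-types did not share these values: Pcdhgc5 read 57.7, 53.3 and 44.6 CPM against 46.9, 49.4 and 55.9 (-0.03, interval -0.22 to 0.16), and Pcdhac2 read 13.2, 12.02 and 13.0 against 11.5, 13.0 and 14.4 (0.03, interval -0.20 to 0.26).

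Without drug, the knockout differed from wildtype at no member by edgeR's adjusted test (0 of 52; 0.0389% of all genes passed; DESeq2 and limma-voom called 0 members), and 4 members had an unadjusted p under 0.05 (7.69%, against 3.13% of all genes). Pcdhgb4 had the smallest p. It read 2.61, 2.09 and 2.52 CPM in wildtype and 1.55, 1.67 and 1.02 in knockout, without overlap, a log2 fold change of -0.76 ± 0.26 (adjusted p = 0.9996). Under exposure its groups overlapped, at 2.43, 2.41 and 1.58 CPM against 1.93, 1.44 and 1.93. Pcdha2, an alternate alpha isoform, read 0.683, 0.661 and 0.999 CPM against 1.13, 1.75 and 1.49 (0.89 ± 0.34, adjusted p = 0.9996). This rests on few reads, and its exposed groups read 0.850, 1.31 and 1.22 CPM against 1.42, 1.34 and 0.835. For Pcdhga1, whose values are given above, the log2 fold change was 0.57 ± 0.27 and the groups overlapped. In 4 members the knockout libraries lay wholly above wildtype and in 2 wholly below, shares of 7.69% and 3.85% against 3.58% and 3.81% of all genes. Cluster medians were 0.12 for alpha, -0.02 for beta (0.03 without wildtype replicate 1 and 0.02 without knockout replicate 1) and 0.07 for gamma members, beside -0.00 for all genes, and 22 of 52 members were below 0 (42.3%, against 50.3% of all genes). The leading beta gene Pcdhb9 read 9.73, 10.03 and 9.94 CPM in wildtype and 12.8, 10.8 and 11.9 in knockout (0.25 ± 0.13, adjusted p = 0.9996).

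Between exposed genotypes, 0 of 52 members passed edgeR's adjusted test (0.05% of all genes passed; DESeq2 and limma-voom called 0 members), and 5 had an unadjusted p under 0.05, all lower in the exposed knockout (9.62%, against 7.44% of all genes in either direction). Negative values were seen in 37 of 52 members (71.2%, against 48.8% of all genes), among them 18 of 20 gamma members. Medians were -0.12 for gamma, -0.17 for beta and 0.06 for alpha members. Leaving out each library in turn gave 34 to 41 negative members, and 40 were negative without both libraries low in Xist. The alpha median turned to -0.18 without those libraries and was negative, at -0.06 to -0.13, without any 1 of the exposed libraries other than exposed wildtype replicate 2. The beta median was -0.03 without exposed wildtype replicate 2, and the gamma median was -0.23 without exposed knockout replicate 3. The exposed wildtype libraries also serve in the comparison with wildtype, so high values there enter both comparisons with opposite signs.

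Pcdhb11 had the smallest p of this comparison. It read 4.78, 4.17 and 2.65 CPM in exposed wildtype and 2.55, 2.68 and 2.68 in exposed knockout, a log2 fold change of -0.56 ± 0.22 (adjusted p = 0.545). Exposed wildtype replicate 3 lay among the knockout values. Pcdhgc5, with 63.3, 61.9 and 52.001 against 46.9, 49.4 and 55.9 CPM, overlapped likewise (-0.22 ± 0.09, adjusted p = 0.569). Pcdhga11, the highest alternate isoform per kilobase free on both strands, read 6.93, 7.93 and 7.69 CPM against 5.51, 5.89 and 6.24. Its groups did not overlap (-0.35 ± 0.16, adjusted p = 0.608). Pcdhgb5 was also separate, at 2.71, 3.39 and 3.31 against 1.99, 2.40 and 2.37 CPM (-0.47 ± 0.21, adjusted p = 0.608). Pcdhb20, an abundant beta gene, read 9.56, 9.24 and 9.42 CPM against 8.35, 7.23 and 7.99 (-0.26 ± 0.12, adjusted p = 0.654), again separate. In all, 5 members lay wholly lower in the exposed knockout and 1 wholly higher, 9.62% and 1.92% against 6.24% and 6.96% of all genes. Pan-neuronal markers leaned the same way: 9 of 10 were negative with a median of -0.12 and 0 past the test. Their sum was 5428 to 5720 CPM in exposed knockout against 5612 to 6269 in exposed wildtype. All 3 tested serotonergic markers were negative too (median -0.12). Other neuronal lists leaned up. Negative were 0 of 10 striatal projection neuron markers (median 0.16) and 3 of 10 olfactory bulb and immature neuron markers (median 0.07), with 0 past the test. Choroid plexus markers leaned up, all 12 positive with a median of 0.69 and 1 past the test (0.05% of all genes passed), with sums of 2653 to 3192 against 1367 to 2687 CPM. Their part in the protocadherin values was not tested.

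**Figure D5:**
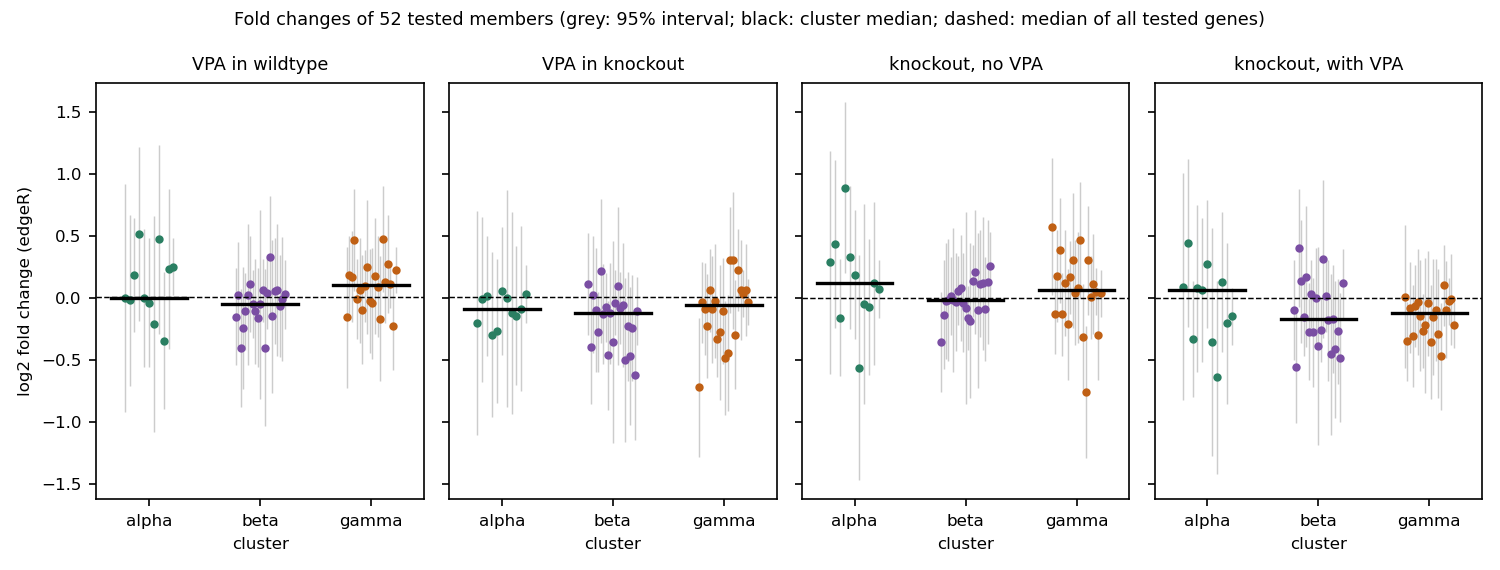
Log2 fold change (edgeR) of the 52 tested members, by cluster and in alphabetical order, for valproic acid in each genotype and knockout in each treatment, with 95% intervals (grey), the cluster median (black bar) and the median of all tested genes (dashed). Most gamma members in the right panel (18 of 20) lie under 0, and no member passed the adjusted test in any panel.

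Whether valproic acid acted differently in the genotypes was tested by the interaction. It was below 0, meaning a lower response in the knockout, in 36 of 52 members (69.2%, against 49.5% of all genes), with medians of -0.20 for alpha, -0.17 for beta and -0.21 for gamma members, and 0 members passed edgeR's adjusted test (0% of all genes; DESeq2 and limma-voom called 0 members). Without both libraries low in Xist 43 members were below 0, and the gamma median was -0.11 without wildtype replicate 2, -0.12 without knockout replicate 1 and -0.31 without knockout replicate 3. The 3 with an unadjusted p under 0.05 (5.77%, against 5.97% of all genes) were the gamma isoforms Pcdhgb5, Pcdhga2 and Pcdhga6. Pcdhgb5 had the smallest p: its log2 fold changes were 0.48 in wildtype and -0.30 in knockout, where it read 2.68, 2.83 and 2.81 CPM unexposed and 1.99, 2.40 and 2.37 exposed, and the difference was -0.77 ± 0.30 (adjusted p = 0.833). All 4 pairwise comparisons of this gene were without overlap. It was picked by its p, and the share of all genes separate in all 4 was not counted. Its spread within groups was 0.743, under the value of 1 for counting error alone, on 32 to 83 counts per library. Pcdhga2, at 3.06, 4.54 and 3.70 CPM in knockout and 3.01, 2.83 and 3.82 in exposed knockout, differed by -0.69 ± 0.29 (adjusted p = 0.833), and Pcdhga6 by -0.43 ± 0.20 (adjusted p = 0.833).

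Averaging over genotypes used all 12 libraries for the valproic acid effect and gave the most called genes of any comparison, 5.99% of all, but 0 of the 52 members by edgeR (DESeq2 and limma-voom also called 0). At an unadjusted p under 0.05 the only member was Pcdhga1 (1.92% of members, against 21.8% of all genes), with a log2 fold change of -0.44 ± 0.19 (adjusted p = 0.186). The next smallest p-values belonged to Pcdhb18 (-0.29, adjusted p = 0.268) and Pcdhb8 (-0.32, adjusted p = 0.304). Beta members were mostly below 0, 18 of 21 with a median of -0.15 (47.6% of all genes were below 0), whereas alpha and gamma members had medians of 0.01 and 0.03. The alpha median was below 0 without wildtype replicate 2, exposed wildtype replicate 1 or exposed knockout replicate 2, at -0.07, -0.04 and -0.02, and the gamma median was below 0 without knockout replicate 3 or exposed knockout replicate 3, at -0.01 and -0.02. Without both libraries low in Xist, 15 of 21 beta members were below 0. Averaged over treatments, the knockout effect also left 0 members called by edgeR (0.05% of all genes; DESeq2 and limma-voom called 0 members), and 5 had an unadjusted p under 0.05 (9.62%, against 4.42%). Pcdhgb4 was first at -0.52 ± 0.18 (adjusted p = 0.972), followed by Pcdhb20 at -0.21 ± 0.09 and Pcdhb11 at -0.35 ± 0.15 (both adjusted p = 0.9999). Below 0 were 29 of 52 members (55.8%, against 50.2% of all genes).

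The intervals show how closely each change was bounded; since calls were made on adjusted p, some members whose interval left out 0, such as Pcdhga1 and Pcdhgb4, were not called. The 95% interval of the log2 fold change lay within 2-fold in either direction for 48 of 52 members for valproic acid in wildtype, 46 for valproic acid in knockout, 46 for knockout without drug, 44 for knockout with drug and 30 for the interaction. Within 1.5-fold it lay for 29, 23, 25, 19 and 9 members. The abundant C-type Pcdhgc3 had intervals of -0.08 to 0.30 and -0.15 to 0.23 for valproic acid in wildtype and knockout. For Pcdhac1, at 1.24 CPM, they ran from -0.41 to 0.88 and from -0.75 to 0.58, so a 1.5-fold increase in wildtype and a 1.5-fold decrease in knockout lay inside the intervals.

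Genes around the clusters were taken from 5 lists, and in the 4 pairwise comparisons 0 of their tested genes passed edgeR's adjusted test. For valproic acid averaged over genotypes, where 5.99% of all genes passed, a few did. Of 11 tested non-clustered protocadherins, 1 rose and 1 fell: Pcdh1 rose by a log2 fold change of 0.15 (adjusted p = 0.0486) and Pcdh17, an adhesion molecule of corticobasal circuits, fell by 0.26 (adjusted p = 0.0158). Among 14 genes of cohesin, CTCF and insulation, Pds5b, a cohesin regulator, fell by 0.20 (adjusted p = 0.0153). Among 15 genes of DNA methylation and silencing, Lrif1, a partner of the cluster repressor Smchd1, fell by 0.32 (adjusted p = 0.0124). Of 20 intracellular partners and cleavage enzymes 0 passed (smallest adjusted p = 0.0553), and the smallest unadjusted pairwise p, 0.000508, belonged to the synaptic adhesion gene Nlgn1, at -0.33 between exposed genotypes (adjusted p = 0.289 in that comparison). Among 22 tested neighbours of the locus, Taf7, a transcription factor subunit gene lying between the beta and gamma clusters, fell by 0.41 (adjusted p = 0.0439), Ndfip1, a ubiquitin ligase adaptor, fell by 0.24 (adjusted p = 0.0165) and Pcdh1 rose as above. These lists serve as surroundings of the locus, and nothing was tested that links their values to those of the clustered genes.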

How the data were processed

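The authors deposited raw read counts per Ensembl gene, without normalisation, in 1 table for all 12 libraries. Per the labels' protocols, ribosomal RNA was depleted before library preparation; HISAT2 and GRCm39 are named, without versions, per the submitters' processing notes. How reads were counted, with which annotation and strand setting, is among the points not given in the sources used here. Symbols, gene order and exon overlap came from GENCODE M21 on GRCm38, so no positions are given; 52125 rows had a name. Symbol Pcdha11 stood on 2 rows, and the row whose transcript maps to RefSeq Pcdha10 (ENSMUSG00000007440) was called Pcdha10. Of 174 list genes 173 matched a symbol; Hars1 did not.

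Genes were kept by filterByExpr (17995) and scaled by TMM (factors 0.93 to 1.02). In R 4.3.3, edgeR 4.0.16 fitted 4 group means to the 12 libraries by its robust quasi-likelihood method (biological coefficient of variation 0.0898). Tests of 7 contrasts were two-sided; p-values were adjusted by Benjamini and Hochberg's method across the 17995 genes, with a threshold of 0.05. The method was run on simulated counts with the same spread for every gene, a simpler case than these data. Members named were the C-types, the 3 highest per cluster and the 3 smallest p-values per contrast; Pcdhga12 and Pcdhga7 were added after their values were seen. Members, lists and rules were chosen with earlier results of these data known. Alternatives were DESeq2 1.42.0 and limma 3.58.1 (voom), other scaling and filters, fewer libraries, the replicate number as a block, and, added after seeing the data, members with at least 1000 free bases and counts of negative members with fewer libraries.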

Additional observations from a re-analysis of the deposited data

How the results depend on the processing

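The count of members past the adjusted test was 0 in every contrast under every alternative run (19 or 20 per contrast), with a smallest adjusted p of 0.0737. Cluster medians of the log2 fold change moved by more than the spread between libraries in these cases. Without both libraries low in Xist, the alpha median was 0.21 for WT_V against WT and -0.18 for htr_V against WT_V, the beta median of the interaction was -0.32, and the gamma median was -0.25 for htr_V against WT_V and -0.12 for the knockout averaged over treatments. With no count filter, which adds 3 sparse members, the alpha median for htr_V against WT_V was -0.19. Leaving out each library in turn gave alpha medians from -0.0092 to 0.24 for WT_V against WT, beta medians from -0.21 to -0.029 and gamma medians from -0.23 to -0.10 for htr_V against WT_V, and gamma medians from -0.31 to -0.11 for the interaction. Other causes of these shifts were not tested. Counts over all genes, which give the background shares, varied more: 14 to 512 against 161 for WT_V against WT, 2 to 391 against 10 for htr_V against htr, 6 to 15 against 7 for htr against WT, 7 to 86 against 9 for htr_V against WT_V, 0 to 5 against 0 for the interaction, 298 to 1453 against 1078 for valproic acid and 7 to 46 against 9 for the knockout averaged. With the replicate number as a block, 0 members passed in every contrast. Same-numbered libraries had residual correlations of -0.06 to 0.11. Differently numbered libraries were not compared, so these values cannot decide whether the numbers mark a pairing.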

Other observations

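Knockout replicate 3, the shallowest library, had 2 counts of Pcdha6 against 14 to 39 in the other 11 libraries, and 5 counts of Pcdha7 against 17 to 46. In CPM these were 0.119 against 0.615 to 1.57, and 0.299 against 0.764 to 1.86. These genes are neighbours in the alpha cluster. Pcdha8, the next gene after them, had 1 count in that library against 2 to 12 in the others, also the lowest. Before them, Pcdha5 read 2.33 CPM in that library, and Pcdha3, at 2.57 CPM, was higher there than in any other library. Lowest values in that library were not confined to these neighbours. Pcdha1 read 0.418 CPM there, against 0.458 to 1.25 in the others, and Pcdha12 read 2.33 against 2.475 to 4.74. The gamma genes Pcdhgb4, Pcdhgb2 and Pcdhgc5 were also lowest there. In a group of 3 libraries no outlier test was made, and Pcdha6 and Pcdha7 were picked after their values were seen.

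Among the 52 tested members, exposed knockout replicate 1 gave the lowest level for 12 and knockout replicate 3 for 10, whereas knockout replicate 1 gave the highest for 11 and exposed wildtype replicate 1 for 10.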
